A study of Mus musculus with 11 samples.

Results

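Toll-like receptors (TLRs), their transport protein unc93b and their adaptor myd88 were measured in the spleens of 11 mice. Every gene of the table whose name begins with tlr was taken, with unc93b and myd88, and this gave 11 of the 93 genes, 9 of them receptors. All names match RefSeq entries, unc93b as an older name of Unc93b1. The name tlr11 is the current symbol of one gene and also an older name of Tlr12, and the table holds no probe sequences that would tell them apart.

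TLRs are membrane proteins that recognise microbial molecules and, in endosomes, nucleic acids. TLR1, TLR2, TLR4 and TLR5 act at the cell surface on bacterial lipoproteins, lipopolysaccharide and flagellin, whereas TLR3, TLR7, TLR8, TLR9 and, in the mouse, TLR11 act inside endosomes, which they reach with the chaperone UNC93B1. Nearly all of them signal through the adaptor MyD88 to NF-kB and interferon regulatory factors, and TLR3 uses the adaptor TRIF. In the spleen, B cells, dendritic cells and macrophages carry these receptors, and TLR7 and TLR9 are known for their part in autoantibody production in lupus-prone mice.

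The study asked what cGAS, a cytosolic DNA sensor that signals through STING, contributes to the lupus-like disease of Fas-deficient mice. Spleen RNA of female mice was counted with a custom NanoString nCounter probe set, in which barcoded probes are hybridised to RNA and counted without amplification. The groups were 3 WT/Fas lpr mice (MRL/MpJ-Fas lpr), 4 cGAS KO/Fas lpr mice of that strain, 1 C57BL/6 (B6) WT mouse, 1 B6 cGAS KO mouse and 2 WT mice of the B6 strain that had received DMXAA by injection. DMXAA is a synthetic agonist of mouse STING. The Fas lpr strain carries a loss-of-function allele of the death receptor Fas. In that strain cGAS was disrupted with CRISPR/Cas9 in exon 2, and the B6 knockout line came from EUCOMM embryos. The labels number each sample as a separate replicate, and they give no age, no DMXAA dose and no time after injection. KO is not written in the labels of the 4 knockout mice of the Fas lpr strain, which name only cGAS and Mrl, so their knockout status is taken from the study's methods. Strain and Fas genotype change together between Fas lpr and B6 mice, so their effects cannot be told apart. The same holds for strain, Fas genotype and injection between DMXAA-injected and Fas lpr mice. Of these, 4 Fas lpr mice also lack cGAS, and both DMXAA-injected mice are WT. cGAS, STING and Fas are not among the 93 genes used here, so the genotypes could not be checked against them. Of 32 marker genes of spleen cell types and housekeeping genes looked for, 0 were on the panel, so the tissue label and the cell composition could not be examined, and fewer cells of a type and less RNA per cell cannot be told apart.

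The total counts of the panel differed widely between mice. The deposited signal is a whole number multiplied by a factor for each mouse, and dividing by that factor gave whole numbers, called counts here, for all 1023 values within 0.0001. The WT/Fas lpr mice had totals over the 93 genes of 28406, 50223 and 58404 counts, and the cGAS KO/Fas lpr mice had 41885, 57548, 43164 and 47134. For the B6 WT mouse the total was 3612, for the B6 cGAS KO mouse 12386, and for the DMXAA-injected mice 647148 and 600677. Totals of the DMXAA-injected mice drew strongly on a few genes, with viperin alone at 174684 to 181097 counts. The factors of the deposited signal, which the authors normalised to housekeeping genes, were 0.6697 to 1.3557 in the Fas lpr strain, 0.0823 for the WT and 0.2969 for the cGAS KO mouse of the uninjected B6 strain, and 1.6119 and 1.6397 after DMXAA. They scaled the uninjected B6 mice, with the lowest totals, further down and the DMXAA-injected mice further up, so the totals are not taken here as depth, and the housekeeping counts themselves are not in the table. The B6 WT mouse stood apart at the low end, with 46 of 93 genes under 20 counts, against 26 in the B6 cGAS KO mouse and 10 to 16 in the other mice. Of the 11 genes described here, 6 were under 20 counts in the B6 WT mouse and at most 1 in any other mouse. These genes held 8.39% to 12.2% of all counts in the Fas lpr mice, 17.3% and 16.6% in the uninjected B6 mice, and 1.26% in each DMXAA-injected mouse.

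Levels are given as log2 of the count plus 1, minus the median of the same quantity over the 93 genes of that mouse, so a level of 0 is the middle of the panel. The panel median itself was 106 to 207 counts in the Fas lpr strain, 21 and 36 in the uninjected B6 mice, and 681 and 605 after DMXAA. The choice of scale therefore matters most for the comparisons with B6 mice. Since the panel median was highest after DMXAA, a gene lower relative to it there need not have fewer counts. Such a gene may only have risen less than the panel median. Between DMXAA-injected and Fas lpr mice, the median log2 difference over all 93 genes was -0.81 relative to the panel median, -0.12 with median-of-ratios scaling, -0.11 with voom, 1.18 on the counts without centring and 1.84 on the deposited signal. Intervals printed beside single counts are 95% Poisson intervals and cover counting error only.

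**Figure D1:**
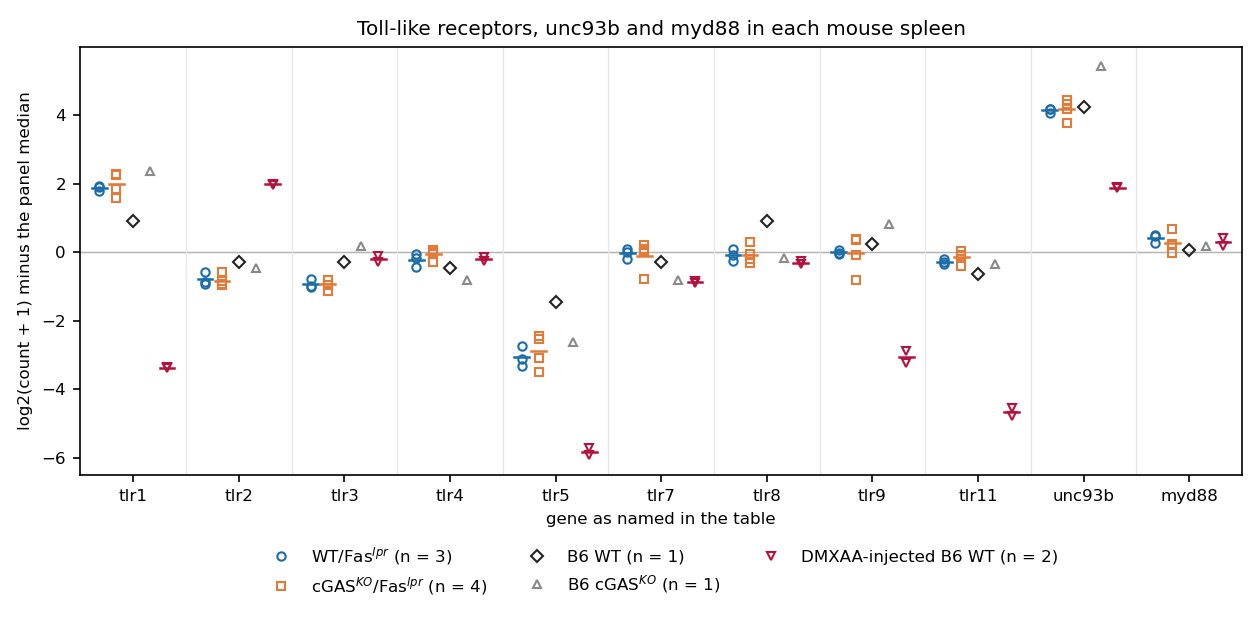
Level of each of the 11 genes in each mouse, as log2 over the panel median of that mouse (vertical axis), with one point per mouse and a bar at the group mean. The 2 DMXAA-injected mice lie above all other mice for tlr2 and below all others for tlr1, tlr5, tlr7, tlr9, tlr11 and unc93b; against the Fas lpr mice tlr5 and tlr9 overlap on the deposited signal, unc93b overlaps on the counts and on the deposited signal and tlr7 turns on both, and against the B6 WT mouse all 6 of the lower genes turn on the counts without centring and on the deposited signal.

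The 4 comparisons gave different numbers of changed genes. A gene is counted as changed where limma's p, adjusted over the 93 genes by Benjamini-Hochberg, is under 0.05. Within the Fas lpr strain, with cGAS KO set against WT mice, 0 of the 11 genes changed, as did 0% of all 93. In Fas lpr against uninjected B6 mice, 1 of the 11 genes was higher and 5 were lower relative to the panel median, beside 28% and 40.9% of all 93 genes (68.8% in either direction). On the counts without centring all 11 were higher, beside 83 higher and 2 lower of all 93. In DMXAA-injected against uninjected B6 WT mice, 1 was higher and 6 were lower relative to the panel median, beside 37.6% and 50.5% (88.2% in either direction). On the counts without centring 8 were higher and 0 lower, beside 73 and 2 of all 93. In DMXAA-injected against Fas lpr mice, 2 were higher and 6 lower, beside 33.3% and 55.9% (89.2% in either direction). On the counts without centring 6 were higher and 4 lower, beside 52 and 23 of all 93. Read against the whole panel, these counts show nothing particular to the TLR genes, and the results lie in the single genes.

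Among the 11 genes the widest separation was between tlr1 and tlr2, whose products pair at the cell surface to bind triacylated lipopeptides. tlr2 was counted 2662 and 2424 times in the DMXAA-injected mice, 71, 95 and 108 times in WT/Fas lpr and 79, 134, 85 and 86 times in cGAS KO/Fas lpr mice, and 17 times in the WT and 26 times in the cGAS KO mouse of the B6 strain. Both DMXAA-injected mice stood above all other mice on the counts, on the deposited signal and relative to the panel median. The tlr2 level over the panel median was 1.98 ± 0.03 (SD, n = 2) after DMXAA and -0.81 ± 0.16 (SD, n = 7) in the Fas lpr mice, a log2 difference of 2.79 ± 0.14 (SE; 6.92-fold, limma adjusted p = 3e-08). Against the single B6 WT mouse the log2 difference was 2.27 ± 0.22 (SE; limma adjusted p = 6.8e-06). For every comparison with that mouse the SE and p rest on the spread of the other groups, since 1 mouse has none of its own, and the 2 uninjected B6 mice themselves differed by up to 1.47 log2 among the 11 genes. The direction was upward on every scale in both comparisons.

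tlr1 went the other way. It was counted 66 and 57 times in the DMXAA-injected mice, against 367, 672 and 781 times in WT/Fas lpr mice and 454, 956, 739 and 595 times in cGAS KO/Fas lpr mice. The B6 WT mouse had 40 counts of tlr1 (95% interval 28.6 to 54.5) and the B6 cGAS KO mouse 190 (164 to 219). The DMXAA-injected mice were therefore below every Fas lpr mouse before any scaling, and they lay between the uninjected B6 mice in counts. Relative to the panel median the level was -3.37 ± 0.03 (SD, n = 2) after DMXAA and 1.94 ± 0.25 (SD, n = 7) in Fas lpr mice, a log2 difference of -5.29 ± 0.19 (SE; 39.2-fold lower, limma adjusted p = 1.4e-09), and the sign was the same on the counts without centring (-3.33) and on the deposited signal (-2.67). Against the B6 WT mouse tlr1 was 19.2-fold lower relative to the panel median, and this turned to a log2 difference of 0.60 on the counts without centring.

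Because tlr1 and tlr2 are counted in the same library, their ratio does not depend on any scale factor. It compares the pair across mice and not the amounts of the 2 transcripts, since probes differ in efficiency. The tlr1/tlr2 count ratio was 5.17, 7.07 and 7.23 in WT/Fas lpr mice, 5.75, 7.13, 8.69 and 6.92 in cGAS KO/Fas lpr mice, and 2.35 (WT) and 7.31 (cGAS KO) in the uninjected B6 mice. In the DMXAA-injected mice it was 0.0248 and 0.0235. The ratio thus lay well below all 9 other mice in both, and the log2 difference from the Fas lpr mice was -8.10 (exact permutation p = 0.0278, the smallest that 36 divisions of 2 and 7 mice allow, adjusted p = 0.0318 over 55 ratios).

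**Figure D2:**
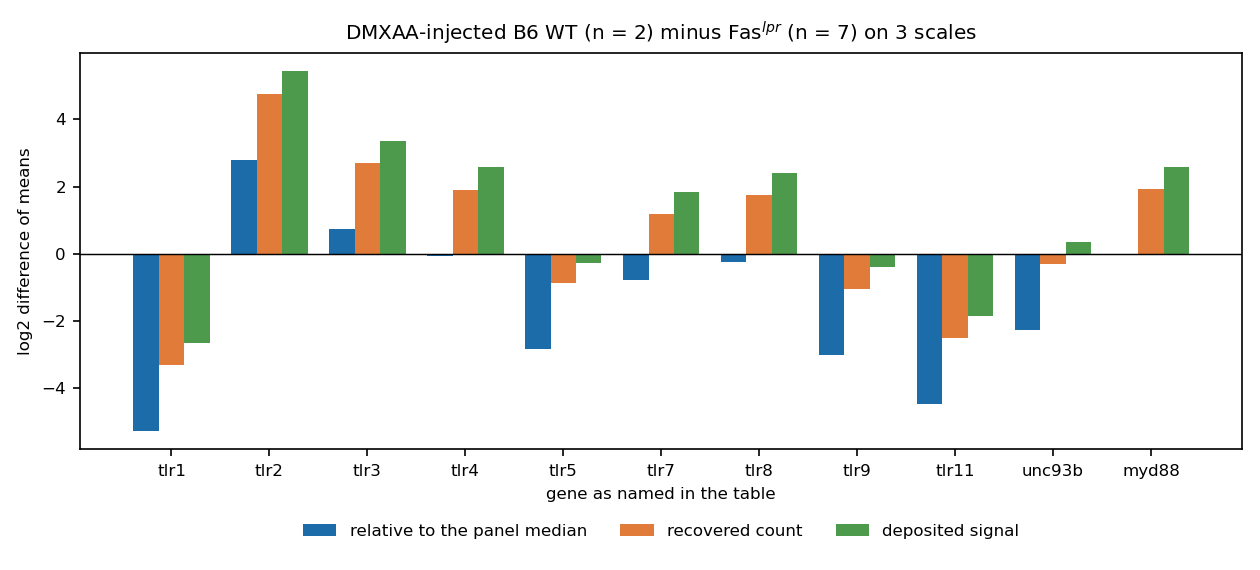
Difference between the mean of the 2 DMXAA-injected mice and the mean of the 7 Fas lpr mice for each gene, in log2, on 3 scales (relative to the panel median, counts, deposited signal); bars are differences of means. tlr2 and tlr3 are positive and tlr1, tlr5, tlr9 and tlr11 negative on all 3 scales, whereas tlr4, tlr7, tlr8 and myd88 are negative relative to the panel median and positive on both others, and unc93b is positive only on the deposited signal.

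tlr4, the lipopolysaccharide receptor, behaved differently from tlr2. It was counted 79, 156 and 198 times in WT/Fas lpr mice, 124, 196, 160 and 167 times in cGAS KO/Fas lpr mice, 15 and 20 times in the uninjected B6 mice, and 621 and 504 times after DMXAA. The counts after DMXAA exceeded all others, as did the panel median. Its level over the panel median was -0.20 ± 0.09 (SD, n = 2) after DMXAA and -0.13 ± 0.17 (SD, n = 7) in Fas lpr mice and did not pass the test (log2 difference -0.06, limma adjusted p = 0.699), whereas with median-of-ratios scaling and with voom the difference was 0.63 and passed. Between Fas lpr and uninjected B6 mice tlr4 was the 1 gene of the 11 that was higher in the Fas lpr strain, by 0.50 ± 0.14 log2 (SE; limma adjusted p = 0.0111), a direction shared by every scale. The levels of the 7 Fas lpr mice, from -0.42 to 0.07, did not overlap those of the 2 B6 mice, -0.46 and -0.82, but the call was lost without the B6 cGAS KO mouse (0.32, limma adjusted p = 0.165) and among WT mice alone (0.25, limma adjusted p = 0.328). It was also lost with a pseudocount of 10 (0.33), with genes of a mean count under 20 left out (0.34), with counts under 20 set to 20 (0.32) and with voom (0.64), with limma adjusted p between 0.051 and 0.0756.

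md2, which encodes the co-receptor that binds lipopolysaccharide with TLR4, is the only other receptor or chaperone of the list on the panel. It was counted 273 and 297 times after DMXAA and 195 to 372 times in Fas lpr mice, so its counts overlapped. It was lower after DMXAA by 2.01 log2 relative to the panel median (limma adjusted p = 1.6e-07), and on the deposited signal the difference turned to 0.63. In the Fas lpr mice it was higher than in uninjected B6 mice by 0.65 (limma adjusted p = 0.00144), with the same sign on all scales.

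tlr5, the flagellin receptor, was the least counted of the 11. It gave 15, 19 and 20 counts in WT/Fas lpr mice and 17, 34, 27 and 14 in cGAS KO/Fas lpr mice. The B6 WT mouse gave 7 (95% interval 2.81 to 14.4), the B6 cGAS KO mouse 5, and the DMXAA-injected mice 12 and 9. The intervals of the DMXAA-injected mice, 6.2 to 21 and 4.12 to 17.1, both include the count of the B6 WT mouse and that of at least 1 WT/Fas lpr mouse. Both injected mice lay below all 7 Fas lpr mice in counts. The level after DMXAA was 7.17-fold lower than in Fas lpr mice relative to the panel median (limma adjusted p = 2.9e-06), lower by 0.88 log2 on the counts without centring, and overlapping on the deposited signal (-0.27). Against the B6 WT mouse tlr5 was lower by 4.36 log2 relative to the panel median, and the direction turned on the counts without centring (0.51).

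Among the endosomal receptors, tlr3, a sensor of double-stranded RNA, was the only one above the Fas lpr mice after DMXAA on all scales. It was counted 557 and 563 times after DMXAA, 61, 87 and 102 times in WT/Fas lpr mice, and 69, 115, 87 and 85 times in cGAS KO/Fas lpr mice. The levels of all 7 Fas lpr mice, from -1.13 to -0.79, lay below those of the DMXAA-injected mice, -0.29 and -0.10. The log2 difference was 0.73 ± 0.14 (SE; 1.66-fold, limma adjusted p = 0.00047). The uninjected B6 mice, with 17 and 41 counts, had levels of -0.29 and 0.18, as high as those after DMXAA. Against the B6 WT mouse the DMXAA difference of 0.09 did not pass, it turned to -0.23 when genes with a mean count under 20 were left out of the panel median, and it passed as higher with median-of-ratios scaling (0.61, limma adjusted p = 0.0241) and on the counts without centring (4.96). In Fas lpr against uninjected B6 mice tlr3 was lower by 0.87 ± 0.14 log2 (SE; 1.83-fold, limma adjusted p = 0.00035), with no overlap between the groups, although on the counts without centring it was higher by 1.64.

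tlr9, the receptor for DNA rich in unmethylated CpG, was counted 72 and 81 times after DMXAA. The WT/Fas lpr mice had 105, 168 and 215 counts, the cGAS KO/Fas lpr mice 86, 263, 197 and 158, and the uninjected B6 mice 25 and 65. The DMXAA-injected mice were below every Fas lpr mouse in counts, narrowly so against the lowest of these. Relative to the panel median the level was -3.05 ± 0.24 (SD, n = 2) after DMXAA and -0.02 ± 0.40 (SD, n = 7) in Fas lpr mice (8.2-fold lower, limma adjusted p = 2.7e-06), and the groups overlapped on the deposited signal. Against the B6 WT mouse it was 9.82-fold lower (limma adjusted p = 4.7e-05), a direction that turned on the counts without centring (1.57).

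tlr7, the receptor for single-stranded RNA, did not follow tlr9. It was counted 93, 185 and 207 times in WT/Fas lpr mice, 89, 207, 176 and 176 times in cGAS KO/Fas lpr mice, 17 and 20 times in the uninjected B6 mice, and 365 and 336 times after DMXAA. Its counts were highest after DMXAA, while its level of -0.87 ± 0.04 (SD, n = 2) was below the Fas lpr mean of -0.08 ± 0.33 (SD, n = 7). The fall of 0.80 ± 0.23 log2 (SE; limma adjusted p = 0.00762) relative to the panel median became -0.11 with median-of-ratios scaling or voom and did not pass, and it turned to 1.18 on the counts without centring. The tlr7/tlr9 count ratio, free of any scale factor, was 0.787 to 1.11 in the Fas lpr mice, 0.68 and 0.308 in the uninjected B6 mice, and 5.07 and 4.15 after DMXAA. tlr7 thus rose relative to tlr9 in both injected mice, by 2.24 log2 over the Fas lpr mice (exact permutation p = 0.0278, adjusted p = 0.0318).

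tlr8, a close relative of tlr7, had 114, 164 and 171 counts in WT/Fas lpr mice, 132, 162, 146 and 207 in cGAS KO/Fas lpr mice and 535 and 500 after DMXAA. The DMXAA-injected mice, at -0.31 ± 0.05 (SD, n = 2) over the panel median, did not differ past the threshold from the Fas lpr mice, at -0.07 ± 0.22 (SD, n = 7), but they passed as higher with median-of-ratios scaling (0.45, limma adjusted p = 0.047) and with voom (0.47, limma adjusted p = 0.0139), and on the counts without centring the difference was 1.75. The uninjected B6 mice had 40 (95% interval 28.6 to 54.5) and 32 (21.9 to 45.2) counts, with levels of 0.90 and -0.17. Of these only the B6 WT mouse lay above the Fas lpr range. tlr8 was lower in Fas lpr than in uninjected B6 mice by 0.44 log2 (limma adjusted p = 0.0445) relative to the panel median, and without the B6 WT mouse the difference turned to 0.09. The call was also lost without replicate 2 or 3 of the WT/Fas lpr mice or without replicate 1, 2 or 3 of the cGAS KO/Fas lpr mice, the difference lying between -0.44 and -0.40.

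tlr11, a receptor for a protozoan profilin, was counted 28 and 21 times after DMXAA, with 95% intervals of 18.6 to 40.5 and 13 to 32.1. WT/Fas lpr mice had 84, 141 and 179 counts, cGAS KO/Fas lpr mice had 115, 208, 144 and 155, the B6 WT mouse had 13 and the B6 cGAS KO mouse had 28. The intervals after DMXAA lay wholly below the lowest Fas lpr count and included the count of at least 1 uninjected B6 mouse. The level was -4.67 ± 0.16 (SD, n = 2) after DMXAA and -0.20 ± 0.16 (SD, n = 7) in Fas lpr mice (22-fold lower, limma adjusted p = 6e-10), and the sign held on the counts without centring (-2.50) and on the deposited signal (-1.86). Against the B6 WT mouse tlr11 was 16.2-fold lower relative to the panel median and higher by 0.85 log2 on the counts without centring.

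unc93b, the chaperone that carries the endosomal receptors out of the endoplasmic reticulum, was counted 1930, 3180 and 3477 times in WT/Fas lpr mice, 2108, 4013, 3349 and 3072 times in cGAS KO/Fas lpr mice, 412 and 1583 times in the uninjected B6 mice, and 2473 and 2262 times after DMXAA. After DMXAA the counts lay inside the range of the Fas lpr mice. As a share of all counts it made up 5.03% to 7.76% in Fas lpr mice, 11.4% and 12.8% in uninjected B6 mice, and 0.382% and 0.377% after DMXAA. It fell relative to the panel median after DMXAA by 2.28 ± 0.17 log2 (SE; 4.86-fold, limma adjusted p = 4e-07) from the Fas lpr level of 4.17 ± 0.21 (SD, n = 7), but the difference was -0.31 on the counts without centring and turned to 0.35 on the deposited signal.

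Against the uninjected B6 mice, the unc93b level of the Fas lpr mice was lower by 0.66 ± 0.17 log2 (SE; limma adjusted p = 0.0056) relative to the panel median, and higher by 1.85 on the counts without centring. The 2 B6 mice were far apart, at 4.23 and 5.42, and the B6 WT mouse lay within the Fas lpr range of 3.78 to 4.45. Without the B6 cGAS KO mouse the difference was -0.07 (limma adjusted p = 0.799).

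The endosomal receptors differed unequally from the Fas lpr mice relative to their chaperone after DMXAA. The tlr3/unc93b count ratio was 0.026 to 0.0327 over the 7 Fas lpr mice, whereas it was 0.225 and 0.249 after DMXAA. The tlr7/unc93b ratio went from 0.0422 to 0.0595 in Fas lpr mice to 0.148 and 0.149, and the tlr8/unc93b ratio from 0.0404 to 0.0674 to 0.216 and 0.221. All of these ratios were higher after DMXAA than in any other mouse, the uninjected B6 mice having 0.0413 (WT) and 0.0259 (cGAS KO) for tlr3, 0.0413 and 0.0126 for tlr7, and 0.0971 and 0.0202 for tlr8. The tlr9/unc93b ratio was 0.0408 to 0.0655 in Fas lpr mice and 0.0291 and 0.0358 after DMXAA, and the tlr11/unc93b ratio was 0.043 to 0.0546 and then 0.0113 and 0.00928. In the uninjected B6 mice tlr9/unc93b was 0.0607 (WT) and 0.0411 (cGAS KO), and tlr11/unc93b was 0.0316 and 0.0177. Both ratios were thus lowest after DMXAA, but tlr11/unc93b in the uninjected B6 mice also lay below all Fas lpr mice. Strain, Fas genotype and injection cannot be told apart in the tlr11/unc93b difference. In log2 the differences from the Fas lpr mice were 3.02 for tlr3, 1.49 for tlr7, 2.05 for tlr8, -0.75 for tlr9 and -2.19 for tlr11, each at the smallest exact permutation p of 0.0278 (adjusted p = 0.0318).

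Of the 55 ratios between members, 48 differed between DMXAA-injected and Fas lpr mice at that adjusted p, all of them at the smallest p that 36 divisions allow (0.0278). This is 87.3%, and of the 4278 ratios between any 2 genes on the panel 3614 (84.5%) reached the same exact permutation p, so such a difference was the rule on this panel. The tlr4/myd88 ratio was among those that did not, with a log2 difference of -0.02 (exact permutation p = 0.944). With either DMXAA-injected mouse left out, 8 mice remain in only 8 divisions, so no exact permutation p under 0.05 was possible. The log2 difference was then -8.13 or -8.06 for tlr1/tlr2, 2.09 or 2.38 for tlr7/tlr9, and -0.60 or -0.90 for tlr9/unc93b. Between Fas lpr and uninjected B6 mice, 0 of 55 ratios passed after adjustment and 21 (38.2%) had an unadjusted exact permutation p under 0.05, against 51.6% of the 4278 ratios.

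myd88, the adaptor used by nearly all TLRs and by receptors of the interleukin-1 family, was counted 128, 249 and 285 times in WT/Fas lpr mice and 243, 238, 151 and 194 times in cGAS KO/Fas lpr mice. The uninjected B6 mice had 22 (95% interval 13.8 to 33.3) and 41 counts and the DMXAA-injected mice 764 and 799. Its counts were highest in the DMXAA-injected mice and lowest in the uninjected B6 mice, and its level stayed in a narrow band in all 11 mice, from -0.01 to 0.67. On the panel median scale it passed no test, with a log2 difference of -0.06 between DMXAA-injected and Fas lpr mice (limma adjusted p = 0.727), but with median-of-ratios scaling and with voom the same difference was 0.63 and passed. A p that misses the threshold does not show that values did not differ.

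The comparison of cGAS KO/Fas lpr with WT/Fas lpr mice addresses whether the DNA sensor sets the expression of these receptors in the autoimmune strain. The groups overlapped for all 11 genes, and their mean differences lay between -0.14 log2 for myd88 and 0.17 for tlr5. tlr7 averaged -0.11 ± 0.44 (SD, n = 4) without cGAS and -0.03 ± 0.14 (SD, n = 3) with it, and tlr9 averaged -0.04 ± 0.56 (SD, n = 4) and 0.00 ± 0.05 (SD, n = 3). The 95% intervals of the differences were -0.61 to 0.45 for tlr7, -0.66 to 0.60 for tlr9, -0.38 to 0.30 for tlr2, -0.34 to 0.43 for unc93b and -0.53 to 0.26 for myd88. These intervals are not adjusted for the number of genes, and they give the range of differences that the data are compatible with and no limit of detection.

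The limma adjusted p was 0.997 for each of the 11 genes. Over the 93 genes limma called 0, with 1 gene at an unadjusted p under 0.05, and voom called 0, with 3 genes at an unadjusted p under 0.05. An exact two-sided Mann-Whitney test also gave 0, since 35 divisions of 3 and 4 mice allow no p below 0.0571, and the smallest among the 11 genes was 0.229. Of the 55 ratios, 0 passed, with a smallest exact permutation p of 0.2, and 1.64% of the 4278 ratios on the panel had an unadjusted p under 0.05.

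Within the cGAS KO/Fas lpr group, replicate 1 differed from the other 3 mice over the whole panel, several members included. Counts of each pair of mice were compared over all genes by chi-square per degree of freedom. This was 16.5, 19.5 and 11.6 between replicate 1 and the other 3, and 3.6, 5.95 and 7.85 among those 3. The departure is therefore not shown to be particular to the members, and the share of all genes with replicate 1 lowest or highest was not computed. Replicate 1 had the lowest levels of the 7 Fas lpr mice for tlr1 (1.57), tlr3 (-1.13), tlr7 (-0.77), tlr9 (-0.81), tlr11 (-0.40) and unc93b (3.78), and the highest for myd88 (0.67). For tlr7 and tlr9 the other 6 Fas lpr mice lay between -0.19 and 0.21 and between -0.08 and 0.38. Without this mouse, 3 further genes passed between Fas lpr and uninjected B6 mice relative to the panel median in the direction of their counts, tlr1 (0.36), tlr7 (0.59) and tlr11 (0.34), and tlr9 passed as lower (-0.43), a direction that turns on the counts without centring.

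Setting Fas lpr mice beside uninjected B6 mice asks how the autoimmune strain differs from a healthy one. Relative to the panel median, tlr2 was lower in the Fas lpr mice by 0.44 ± 0.14 log2 (SE; limma adjusted p = 0.0212) and tlr5 lower by 0.93 ± 0.27 (SE; limma adjusted p = 0.0111), and both were higher on the counts without centring, by 2.07 and 1.58. All 7 Fas lpr mice, at -0.95 to -0.57, lay below both B6 mice, at -0.29 and -0.45, for tlr2, whereas tlr5 overlapped. Without the B6 WT mouse neither passed, at -0.35 for each. tlr1, tlr7, tlr9, tlr11 and myd88 did not pass, with log2 differences of 0.30, 0.48, -0.56, 0.29 and 0.22. Of the 6 calls, tlr3 and unc93b also passed with voom, those of tlr2 (-0.33) and tlr8 (-0.34) were lost with median-of-ratios scaling, and those of unc93b and tlr8 (both -0.35) with a pseudocount of 10. With voom those of tlr2 (-0.33), tlr4 (0.64), tlr5 (-0.79) and tlr8 (-0.34) were lost. The tlr1 value rests on both B6 mice, since it was -0.44 without the B6 WT mouse and 1.03 without the B6 cGAS KO mouse, where it passed. Among WT mice alone tlr1 also passed as higher (0.98, limma adjusted p = 0.00986), as it did with a pseudocount of 10 (0.47), and tlr7 (0.58) and tlr11 (0.40) passed as higher with median-of-ratios scaling. tlr2 did not pass among WT mice alone (-0.50, limma adjusted p = 0.0548), nor did unc93b (-0.09). With the B6 mice at 1 per genotype, their spread is borrowed from the other groups and the adjusted p values cannot be taken at face value.

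The 2 uninjected B6 mice, which differ in genotype and in total counts, were furthest apart for tlr1 and unc93b. Relative to the panel median the B6 cGAS KO mouse was higher than the B6 WT mouse by 1.47 log2 for tlr1 and by 1.19 for unc93b, and lower by 1.17 for tlr5 and 1.06 for tlr8. The other genes differed by -0.53 for tlr7 to 0.59 for tlr9. In counts, unc93b had 412 (95% interval 373 to 454) in the WT and 1583 (1506 to 1663) in the knockout mouse, and tlr8 had 40 and 32. With 1 mouse per genotype these differences have no error of their own, and genotype and single mouse cannot be told apart. limma's contrast of the genotype differences of the strains called 3 of the 11 genes, 1 higher and 2 lower, beside 5.38% and 28% of all 93 genes (33.3% in either direction), and with median-of-ratios scaling the same contrast gave 3 higher and 0 lower of the 11 and 16 and 12 of all 93, against 5 and 26 relative to the panel median. Its error for the B6 mice comes from the other groups, so it does not show that the genotype effect differs between strains.

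Seen against the uninjected B6 WT mouse, DMXAA-injected mice of the same strain differed in most members relative to the panel median, with tlr2 higher and tlr1, tlr5, tlr8, tlr9, tlr11 and unc93b lower, but on the deposited signal all 11 were higher. unc93b was 5.1-fold lower (limma adjusted p = 1.4e-05) and tlr8 2.31-fold lower (limma adjusted p = 0.00158) relative to the panel median, and on the counts without centring both were higher, by 2.52 and 3.66 log2. tlr3, tlr4, tlr7 and myd88 did not pass relative to the panel median, with log2 differences of 0.09, 0.26, -0.58 and 0.22. With median-of-ratios scaling tlr4 (0.78, limma adjusted p = 0.00424) and myd88 (0.74, limma adjusted p = 0.0414) passed as higher along with tlr3, and tlr7 passed as lower without genes of a mean count under 20 (-0.91) and with counts under 20 set to 20 (-0.80), but was higher by 4.29 on the counts without centring. With both uninjected B6 mice as control tlr4 passed as higher (0.44, limma adjusted p = 0.0391). The call of tlr8 was lost with voom (-0.68). Over all 93 genes, 35 were higher and 47 lower relative to the panel median, 73 and 2 on the counts without centring, 93 and 0 on the deposited signal, and 41 and 41 with median-of-ratios scaling. The control is a single mouse with 3612 counts, so its own spread is not known.

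Against the 7 Fas lpr mice the 2 DMXAA-injected mice can be compared without a model, by asking for which genes the groups do not overlap. Relative to the panel median, 2 of the 11 genes lay above and 6 below, beside 33.3% and 54.8% of all 93. On the counts, 6 lay above and 4 below, beside 55.9% and 20.4%. On the deposited signal, 6 lay above and 2 below, beside 62.4% and 5.38%. tlr2 and tlr3 lay above, and tlr1 and tlr11 below, on all 3 scales. tlr4, tlr7, tlr8 and myd88 were above on the counts and on the deposited signal, and of these tlr7 was below relative to the panel median. Over all 93 genes limma called 31 higher and 52 lower relative to the panel median, 52 and 23 on the counts without centring, 54 and 5 on the deposited signal, and 39 and 42 with median-of-ratios scaling. In Fas lpr against uninjected B6 mice the same settings gave 26 and 38, 83 and 2, 93 and 0, and 28 and 35.

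The rest of the TLR pathway on the panel moved in both directions in DMXAA-injected against Fas lpr mice, given here in log2 relative to the panel median. Of 11 receptors and chaperones, which are 10 of the genes above and md2, 2 were higher and 7 lower (median -2.01), and without centring 5 were higher and 4 lower. myd88 was the only adaptor of the list on the panel and none of its kinases was. Of 6 transcription factors and inhibitors of NF-kB (5 factors and IkBa), 3 were higher and 3 lower (median -0.20; 3 and 1 on the counts without centring), among them Irf1 (1.11) and Irf7 (2.16), factors of interferon transcription, and the NF-kB subunits nfkb2 (-2.93) and nfkb1 (-1.79, which turned to 0.19 on the counts). Of 5 negative regulators, 3 were higher and 2 lower (median 0.58; 3 and 1 without centring), with socs1, an inhibitor of cytokine signalling, at 2.45, the deubiquitinases a20 at 1.43 and duba at -3.60, and IrakM, a kinase-dead inhibitor, at -1.94, which turned to 0.03 on the counts. Of 14 genes induced through MyD88 and NF-kB, which are cytokines and chemokines and the enzymes cox2 and nos2, 6 were higher and 6 lower (median 0.26; 10 and 3 without centring). tnfa was counted 28257 to 32362 times after DMXAA and 72 to 154 times in Fas lpr mice, ccl4 63641 to 64148 and 38 to 69 times, and Il6 1532 to 1879 and 10 to 28 times, while Il-1b was counted 20 to 21 and 280 to 423 times. Of 16 interferon genes and interferon-stimulated genes, 8 were higher and 7 lower (median 0.50; 12 and 1 without centring), with Ifnb1 at 9.74, Ifit1 at 8.38, cxcl10 at 5.10 and viperin at 4.71. Each of the genes given here with a value or with counts passed with a limma adjusted p of at most 8.7e-05, and myd88, cox2 and nos2 are not among them. Of all 93 genes 33.3% were higher and 55.9% lower, and the median was -0.81 over all 93 and -0.80 over the 11 genes described here.

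Against the B6 WT mouse, a control of 1, the same lists after DMXAA had 1 higher and 7 lower among receptors and chaperones (median -1.21), 3 and 3 among transcription factors and NF-kB inhibitor (0.36), 2 and 3 among negative regulators (-1.08), 7 and 7 among the genes induced through MyD88 and NF-kB (0.18) and 11 and 1 among the interferon genes (1.73), relative to the panel median. Of all 93 genes 37.6% were higher and 50.5% lower (median -0.93), and on the deposited signal all were higher. The negative regulators thus had medians of opposite sign against the different controls.

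The same lists in Fas lpr against uninjected B6 mice, again relative to the panel median, had 2 higher and 5 lower among receptors and chaperones (median -0.44), 1 and 1 among the transcription factors and NF-kB inhibitor (-0.01), 2 and 2 among negative regulators (0.13), 1 and 10 among the genes induced through MyD88 and NF-kB (-1.11) and 9 and 5 among the interferon genes (0.65). List sizes are as given for DMXAA, and of all 93 genes 28% were higher and 40.9% lower (median -0.07). On the deposited signal all of these genes were higher. cxcl9, a chemokine induced by interferon-gamma, differed by 3.98 log2, Ifi47 by 2.47 and Ifnb1 by -3.22. Irf1 differed by 1.03 and Irf5 by -1.19, socs1 by 1.12, duba by 0.67, socs3 by -1.50 and IrakM by -0.82, and ccl5 by 1.34, Il6 by -1.96, Il12b by -1.47 and ccl4 by -1.05. Each of these passed with a limma adjusted p of at most 0.0259, and of those that were lower only Ifnb1 stayed so on the counts. The direction of duba rests on the B6 WT mouse, since the uninjected B6 mice had 59 (WT) and 738 (cGAS KO) counts of it. Relative to the panel median, the Fas lpr mean of duba lay above the B6 WT mouse and below the B6 cGAS KO mouse. Between the cGAS genotypes of the Fas lpr strain, 0 genes of any list passed limma.

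The panel genes nearest to each member in pattern across the 11 mice are described here. No distances among the other genes of the panel are given, so how close is usual on this panel is not known. Likeness was measured as the root mean square difference between the levels of a pair of genes after each gene's own mean was removed, so a smaller value is a closer pattern. The value is also small between genes that both vary little. unc93b was closest to nlrc4 (0.21), nfkb2 (0.29) and prdm1 (0.31), and tlr9 was closest to nfkb2 (0.31), nlrc4 (0.31) and prdm1 (0.32), so these members share their nearest genes. tlr1 was closest to dusp6 (0.34) and tlr11 (0.42), and tlr11 to dusp6 (0.32), Il-18 (0.34) and tlr1 (0.42). tlr4 was closest to rybp (0.28), with zbp1 and myd88 at 0.31, and myd88 to zbp1 and tlr4, both at 0.31. tlr7 was closest to rybp and cd18, both at 0.31, and tlr8 to nlrp3 (0.36). tlr2 was closest to Il15 (0.29), tlr3 to Il12b (0.36) and tlr5 to Il-1a (0.32), none of them a member.

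Promoter sequences were taken from RefSeq (GRCm38.p6), each from 250 bases before to 50 after the start of the gene. Of the 11 genes, 8 had an entry, with 9 promoters in all since Tlr1 has 2, and tlr4, tlr7 and unc93b had none. Both strands were searched for GAAANNGAA, a form of the interferon-stimulated response element, for GGANTTTCC, a form of the kappa B element, and for TTCNNNGAA, the gamma-activated site bound by STAT proteins. They occur in 8.56%, 1.25% and 8.3% of all 32851 promoters. GAAANNGAA was found in Tlr8, Tlr11 and Myd88, GGANTTTCC in Tlr3 and Myd88, and TTCNNNGAA in Tlr1 promoter 2, Tlr8 and Myd88. Tlr2, Tlr5, Tlr9 and Tlr1 promoter 1 held none of these letters in this window, and a match is a description and shows no binding.

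The promoters of Tlr2, the gene with the widest rise after DMXAA, of Tlr1 and Tlr11, which were lower than in Fas lpr mice on all scales, and of Myd88, the adaptor they share, are printed 5′ to 3′ on the strand of the gene, with matches in capitals. Tlr2 lies at chr3:83841559-83841858 (minus strand), Tlr1 promoter 2 at chr5:64932650-64932949 (minus strand), Tlr11 at chr14:50357664-50357963 (plus strand) and Myd88 at chr9:119339969-119340268 (minus strand). The match in Tlr1 is TTCATCGAA, 228 to 220 bases before the start, and that in Tlr11 is GAAACTGAA, 122 to 114 bases before it. In Myd88, TTCTCGGAA (46 to 38 before) overlaps GAAAGCGAA (40 to 32 before), and GGAAACTCC, the opposite strand of a kappa B match, lies 5 to 13 bases after the start.
Tlr2: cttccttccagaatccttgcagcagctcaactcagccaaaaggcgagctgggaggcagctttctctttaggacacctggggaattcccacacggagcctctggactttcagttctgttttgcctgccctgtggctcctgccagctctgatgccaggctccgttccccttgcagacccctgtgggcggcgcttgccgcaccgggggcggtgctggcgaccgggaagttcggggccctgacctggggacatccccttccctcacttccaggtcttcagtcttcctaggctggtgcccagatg
Tlr1 promoter 2: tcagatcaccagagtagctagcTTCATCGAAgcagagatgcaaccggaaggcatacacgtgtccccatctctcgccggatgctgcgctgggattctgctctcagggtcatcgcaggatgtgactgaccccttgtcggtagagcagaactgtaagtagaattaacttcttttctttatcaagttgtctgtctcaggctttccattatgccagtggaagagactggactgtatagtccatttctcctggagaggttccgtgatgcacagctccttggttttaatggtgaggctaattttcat
Tlr11: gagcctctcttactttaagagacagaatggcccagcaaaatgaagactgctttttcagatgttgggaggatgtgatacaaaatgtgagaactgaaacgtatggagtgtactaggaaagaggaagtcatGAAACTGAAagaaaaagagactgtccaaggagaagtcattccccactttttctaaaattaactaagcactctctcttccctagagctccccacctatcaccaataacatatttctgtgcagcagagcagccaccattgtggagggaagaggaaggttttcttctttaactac
Myd88: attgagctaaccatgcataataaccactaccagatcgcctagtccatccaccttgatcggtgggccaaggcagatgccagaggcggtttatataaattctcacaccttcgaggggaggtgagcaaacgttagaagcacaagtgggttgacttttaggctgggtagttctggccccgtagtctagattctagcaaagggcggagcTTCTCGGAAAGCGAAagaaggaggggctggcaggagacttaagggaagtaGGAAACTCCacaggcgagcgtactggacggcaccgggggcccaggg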

How the data were processed

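The unit of the deposited table is a signal that the authors obtained by normalising nCounter counts (50 ng of total RNA) to housekeeping genes that the table does not name. The signal was divided by each mouse's factor to recover the counts, 1 was added, log2 was taken and the median over the 93 genes of the mouse was subtracted. The 1 was added to the counts and not to the signal, where in the B6 WT mouse it would weigh as much as several counts. The functions lmFit and eBayes of limma (3.58.1, under R 4.3.3) compared the means, with Benjamini-Hochberg adjustment over 93 genes. The cGAS KO/Fas lpr comparison used the 7 Fas lpr mice, and the others all 11 mice in 5 groups, where the lone B6 mice are assumed to vary like the other groups. limma's Fas lpr mean weighs both genotypes equally, so its differences can depart in the last decimal from differences of means over 7 mice, which are given for scales without centring where both other scales are named together. Ratios of members were tested with an exact two-sided permutation of mice. In each comparison with Fas lpr mice the 4 genes of a list with the smallest adjusted p are named, from those past the threshold, beside members and the nearest genes by likeness (at most 3), and 1 gene that the rule would name is not reported here. cox2, nos2 and IkBa are named only to describe their lists. Ratios named in the text were picked by known partnership after their values were seen. The members and lists were chosen with earlier results of these data known. SciPy 1.17.1, pandas 2.3.3, NumPy 2.4.6 and Matplotlib 3.10.9 (Python 3.11.15) made the tables and plots.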

Additional observations from a re-analysis of the deposited data

Results flagged for a closer look

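For 3 genes limma called the contrast of the cGAS genotype difference in Fas lpr mice minus that in B6 mice, relative to the panel median. The contrast was -1.37 log2 for tlr1 (SE 0.37, limma adjusted p = 0.0178), 1.08 for tlr8 (SE 0.35, limma adjusted p = 0.0365) and -1.15 for unc93b (SE 0.33, limma adjusted p = 0.0245). Each value rests on 1 B6 mouse per genotype, the WT at 3612 counts and the knockout at 12386. The B6 difference has no replication and borrows its error from the other groups, so genotype, single mouse and total counts cannot be told apart, and the p values do not show that the genotype effect differs between strains. In the B6 mice tlr1 was counted 40 and 190 times, tlr8 40 and 32 times and unc93b 412 and 1583 times, WT first. In the Fas lpr mice the genotype differences were 0.10, 0.02 and 0.04, much smaller than the B6 differences of 1.47, -1.06 and 1.19. With median-of-ratios scaling the calls among the 11 genes went from 1 higher and 2 lower to 3 higher and 0 lower, and tlr1 (-0.78, limma adjusted p = 0.0961) and unc93b (-0.56, limma adjusted p = 0.183) did not pass, nor did they with voom (-0.79 and -0.55). unc93b was also lost with the filter on low counts (-0.92) and without centring (-1.80). tlr8 did not pass with a pseudocount of 10 (0.84, limma adjusted p = 0.0761) or on the counts without centring (0.43), and turned to -1.20 on the deposited signal. Without 1 of WT/Fas lpr replicates 2 and 3 or cGAS KO/Fas lpr replicate 3 tlr8 did not pass (1.08, 0.99 and 1.08), nor did unc93b without WT/Fas lpr replicate 2 (-1.12). Dixon's test of the highest and lowest mouse in groups of 4 or more gave 0 outliers among 18 values. Only the cGAS KO/Fas lpr group has 4 mice, and the lone B6 mice on which these contrasts rest could not be tested.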

How the results depend on the processing

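Counts of changed genes, member differences and ratios were recomputed with other scalings, pseudocounts (0.5 and 10), a filter at a mean count of 20, robust eBayes with trend, other choices of control mice and each mouse left out. Added after the data were seen were counts without centring, counts under 20 set to 20, voom and the difference between the genotype effects. edgeR was planned and was not run, since the deposited unit is a signal, and voom stood in its place. Of the values recomputed, 181 of 208 kept direction and side of the threshold for the cGAS genotypes within the Fas lpr strain, 154 of 208 in Fas lpr against uninjected B6, 97 of 131 in DMXAA against B6 WT, 184 of 208 in DMXAA against Fas lpr and 35 of 48 for the difference between genotype effects. Scales without centring carry the shift of the whole panel by construction, and the panel median scale removes it by construction. For other changes the cause was not tested. The B6 WT mouse is the only one of its group and has 46 of 93 genes under 20 counts.

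For the cGAS genotypes within that strain (knockout minus WT) no reversed value passed limma. On the deposited signal tlr2 and tlr9 were both 0.04. With the filter tlr2 was 0.10, tlr7 0.06, tlr9 0.10 and myd88 0.00. With median-of-ratios scaling tlr2 was 0.00 and tlr9 0.01, and with voom 0.04 and 0.03. On the counts without centring tlr2 was 0.06, tlr7 0.02 and tlr9 0.06. The labels' replicate numbers do not pair mice (correlations over 93 genes of -0.21, 0.25 and 0.08 between mice of the same number). With replicate number as a block, limma called 0 genes, with 2 at an unadjusted p under 0.05, tlr2 was 0.00 and tlr8 -0.11. Leaving out each mouse gave ranges of -0.12 to 0.07 for tlr2, -0.04 to 0.08 for tlr3, -0.19 to 0.14 for tlr7, -0.11 to 0.11 for tlr8, -0.17 to 0.23 for tlr9 and -0.05 to 0.18 for unc93b.

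In Fas lpr against uninjected B6, 93 genes were called higher and 0 lower on the deposited signal, 83 and 2 on the counts without centring, and 22 and 23 with voom. On the deposited signal and then the counts without centring, tlr2 was 4.38 and 2.07, tlr3 3.97 and 1.64, tlr5 3.43 and 1.58, tlr8 4.56 and 2.07, tlr9 4.39 and 1.95, and unc93b 4.54 and 1.85. The range over mice left out was -0.44 to 1.03 for tlr1 and -0.97 to 0.09 for tlr8.

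In DMXAA against B6 WT, 93 genes were higher and 0 lower on the deposited signal, and 73 and 2 on the counts without centring. On these scales tlr1 was 4.55 and 0.60, tlr5 3.51 and 0.51, tlr7 7.89 and 4.29, tlr8 7.62 and 3.66, tlr9 5.36 and 1.57, tlr11 4.29 and 0.85, and unc93b 6.78 and 2.52. With the filter tlr3 was -0.23, tlr4 -0.06 and myd88 -0.10, with counts under 20 set to 20 tlr3 and tlr4 were -0.13, and with both uninjected B6 mice as control tlr3 was -0.14 and tlr4 passed as higher (0.44). Without each DMXAA mouse tlr3 was 0.00 to 0.19. With median-of-ratios scaling tlr3 (0.61), tlr4 (0.78) and myd88 (0.74) passed as higher.

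In DMXAA against Fas lpr, 54 genes were higher and 5 lower on the deposited signal, and 52 and 23 on the counts without centring. On these scales tlr4 was 2.58 and 1.92, tlr7 1.84 and 1.18, tlr8 2.41 and 1.75, and myd88 2.58 and 1.92, and unc93b was 0.36 on the deposited signal. With median-of-ratios scaling tlr4 and myd88 were 0.63 and tlr8 0.45, and with voom 0.63 and 0.47, and all of these passed as higher. With WT/Fas lpr mice alone tlr4 was 0.02. Over mice left out tlr4 was -0.12 to 0.01 and myd88 -0.18 to 0.05.

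The difference between genotype effects called 5 genes higher and 26 lower. It called 0 higher and 29 lower on the deposited signal, 3 and 24 with a pseudocount of 10, 9 and 21 with the filter, 16 and 12 with median-of-ratios scaling, 0 and 19 on the counts without centring and 4 and 8 with voom (12 in all). tlr8 was -1.20 on the deposited signal.

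For ratios, leaving out mice gave, for the cGAS genotypes of the Fas lpr strain, -0.02 to 0.23 for tlr1/tlr2, -0.12 to 0.04 for tlr7/tlr9, -0.10 to 0.02 for tlr3/unc93b, -0.15 to 0.10 for tlr8/unc93b and -0.17 to 0.05 for tlr9/unc93b. In Fas lpr against uninjected B6 it gave -0.08 to 1.56, -0.57 to 0.14, -0.91 to 1.34 and -0.20 to 0.40 for tlr1/tlr2, tlr3/unc93b, tlr8/unc93b and tlr9/unc93b, and a pseudocount of 10 gave 0.00 and -0.11 for tlr8/unc93b and tlr9/unc93b.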
